A study of Mus musculus with 14 samples.

Results

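The 10 genes described here were taken by symbol from both deposited tables: the transcription factors Atf3, Atf4, Atf5 and Ddit3, the pseudokinase Trib3, the asparagine synthetase Asns, and the serine and mitochondrial folate enzymes Phgdh, Psat1, Shmt2 and Mthfd2. All 10 were present in each table, out of 16821 genes in the first and 16095 in the second, and all 10 passed the filter on low values. The transcription factor ATF4 is the main effector of the integrated stress response: when kinases phosphorylate the initiation factor eIF2, general translation slows while translation of ATF4 mRNA rises. ATF4 then switches on genes for amino acid synthesis and uptake, the further transcription factors ATF3, ATF5 and CHOP (encoded by Ddit3), and TRIB3, which binds ATF4 and restrains it. PHGDH and PSAT1 catalyse steps of serine synthesis from a glycolytic intermediate, SHMT2 splits serine into glycine and a folate-bound carbon unit in mitochondria, and MTHFD2 oxidises that unit. In some human cancer cells NRF2 is known to raise serine synthesis enzymes through ATF4.

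Total RNA was sequenced from mouse liver cancers (MYC-driven HCC) that had received Cas9 with 1 guide RNA each. The first table held 4 control tumours with a GFP guide (MYC/sgGFP), 3 with a Cul3 guide (MYC/sgCul3) and 3 with a Keap1 guide (MYC/sgKeap1). The second held 2 tumours whose guide was directed at NRF2's ETGE motif (sgNrf2 A and B), and 2 control libraries, A and B, which per the labels repeat sgGFP tumours 2 and 4. The protein KEAP1 binds this motif and hands NRF2 to the CUL3 ubiquitin ligase for degradation, so each of the 3 guides was meant to activate NRF2, and MYC drove every tumour, controls included. The sources used here do not give age, sex, strain or how MYC and Cas9 were delivered. The labels number tumours and do not say whether they came from separate mice, so the p-values below measure only the spread between these tumours.

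Depth ranged from 6333025 to 12008223 gene reads per library among the 10 libraries of the first table and from 17819333 to 20848578 among the 4 of the second. Of 12 textbook NRF2 target genes, 10 rose in sgCul3, 11 in sgKeap1 and 9 in sgNrf2 (limma, adjusted p under 0.05), and Myc passed in no comparison. Keap1 mRNA fell by 0.77 ± 0.21 (log2, SE, adjusted p = 0.048) in sgKeap1. Cul3 had a log2 difference of -1.70 ± 0.39 (adjusted p = 0.051) in sgCul3, and Nfe2l2, which encodes NRF2, one of -0.05 ± 0.22 (adjusted p = 0.89) in sgNrf2. All 9 measured hepatocyte markers were present in every library, at a summed 14017 to 90297 CPM (gene reads scaled to a common library total), with the highest sum in sgKeap1 tumour 2. That library also had one of the lowest depths (6505295 reads) and the highest share of reads on its 10 most abundant genes (24.5%). In bulk tissue, fewer cells of a type and less RNA per cell cannot be told apart.

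Per length of transcript, Psat1 and Shmt2 had the highest mean levels of the 10 genes in control tumours, Phgdh was in the middle and Mthfd2 near the lowest. CPM per kilobase of exon (RPKM, mean ± SD, n = 4 sgGFP tumours) was 284 ± 53.1 for Psat1, 197 ± 30.6 for Shmt2 and 172 ± 66.2 for Atf5. They were 114 ± 25.8 for Asns, 104 ± 21.2 for Atf4 and 64.6 ± 3.82 for Phgdh. The lowest RPKM values were 26.8 ± 14.3 for Atf3, 25.6 ± 20.8 for Trib3, 20.5 ± 5.55 for Mthfd2 and 7.95 ± 3.98 for Ddit3. Neighbours in this order differed by less than the larger of their SDs from Shmt2 through Atf5 and Asns to Atf4, and from Atf3 through Trib3 to Mthfd2. Phgdh was the steadiest gene between control tumours relative to its mean, whereas the SD of Trib3 was close to its mean.

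Promoter sequences (250 bases before to 50 after the annotated start, RefSeq, GRCm38.p6) were matched for 10 of 10 genes, with 12 promoters in all because Atf5 and Psat1 have a second one. ATF4 binds, together with C/EBP proteins, a composite element called CARE, and the 4 promoters with a CARE or its variant are shown because they carry the letters ATF4 is known to read. The letters searched on both strands were TGATGNAA for the CARE, GGTGCAAT for its variant and GTTACA for the nutrient-sensing element known beside the CARE of human ASNS. Capitals mark the matches, and no matches overlapped.
Asns: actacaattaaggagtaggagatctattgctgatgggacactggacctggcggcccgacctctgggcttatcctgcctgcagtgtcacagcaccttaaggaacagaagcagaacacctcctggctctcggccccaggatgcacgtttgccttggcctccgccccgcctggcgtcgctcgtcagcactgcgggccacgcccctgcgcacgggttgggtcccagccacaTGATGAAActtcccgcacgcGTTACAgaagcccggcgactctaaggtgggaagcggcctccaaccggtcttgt
Trib3: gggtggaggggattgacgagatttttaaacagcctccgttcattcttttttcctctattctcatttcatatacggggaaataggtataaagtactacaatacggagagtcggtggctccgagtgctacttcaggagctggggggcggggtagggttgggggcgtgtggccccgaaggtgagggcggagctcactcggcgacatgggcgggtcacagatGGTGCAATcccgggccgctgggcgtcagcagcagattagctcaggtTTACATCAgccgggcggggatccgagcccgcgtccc
Atf3: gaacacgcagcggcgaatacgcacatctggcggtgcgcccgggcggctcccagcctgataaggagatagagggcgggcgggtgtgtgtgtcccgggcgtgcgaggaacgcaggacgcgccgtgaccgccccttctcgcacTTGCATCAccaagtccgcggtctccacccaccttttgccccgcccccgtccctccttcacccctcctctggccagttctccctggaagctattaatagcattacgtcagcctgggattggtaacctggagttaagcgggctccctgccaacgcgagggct
Psat1: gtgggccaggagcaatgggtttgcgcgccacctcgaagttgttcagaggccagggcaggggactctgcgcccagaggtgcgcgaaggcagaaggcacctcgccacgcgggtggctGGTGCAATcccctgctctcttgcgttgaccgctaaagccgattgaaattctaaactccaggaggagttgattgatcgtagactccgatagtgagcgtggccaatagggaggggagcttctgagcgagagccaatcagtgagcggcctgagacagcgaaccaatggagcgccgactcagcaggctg
The Asns promoter (chr6:7693160-7693459, minus strand) held a CARE that begins 23 bases before the start and GTTACA that begins 3 bases before it. In the Trib3 promoter (chr2:152344011-152344310, minus strand) the variant begins 32 bases before the start, and a CARE on the other strand begins at base 15 after it. The Atf3 promoter (chr1:191183284-191183583, minus strand) held a CARE on the other strand at 110 bases before the start. The first Psat1 promoter (chr19:15925010-15925309, minus strand) held the variant at 135 bases before it. Across 32851 RefSeq mouse promoters of this length, 3.97% held a CARE, 0.341% the variant and 8.25% GTTACA. The antioxidant response element that NRF2 reads (TGACNNNGC) was matched in Asns and Phgdh, against 12.4% of all promoters. The E-box that MYC reads (CACGTG) was matched in 0 of the 12 promoters, against 7.15% of all. A match describes letters in this window and is not evidence of binding, and its absence says nothing of sites elsewhere.

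In sgNrf2 tumours the stress transcription factors Atf3 and Ddit3 fell, and the log2 difference was below 0 for 10 of 10 genes. The serine enzyme Phgdh and the folate enzyme Mthfd2 overlapped with the controls, whereas Psat1, also of serine synthesis, did not. Of the 10 genes, 2 were called lower and 0 higher by limma at an adjusted p under 0.05, where 2.51% of 13989 tested genes were called lower and 1.9% higher (4.41% in all). edgeR called the same 2, Atf3 (adjusted p = 0.048) and Ddit3 (0.0499), where it called 2.03% of genes lower. Of all genes tested, 47.9% lay below 0. Both sgNrf2 libraries lay below both controls for 8 of the 10 genes, against 30.7% of all genes tested, and above both for 0, against 33.3%. At an unadjusted p under 0.05 there were 7 of the 10, against 30.3%. The median log2 difference was -0.99 over the 10 genes and 0.04 over all genes tested. Levels are given as scaled counts, the deposited library-scaled values, and differences are on a log2(value + 1) scale.

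Atf3, an immediate stress-responsive repressor, had scaled counts of 2114 (control A) and 1167 (control B), and of 282 and 315 in the sgNrf2 tumours. The groups did not overlap, and the lower control was still well above the higher sgNrf2 tumour. The log2 difference was -2.39 ± 0.34 (SE, limma adjusted p = 0.042, n = 2 against 2). Ddit3, whose product CHOP promotes death of stressed cells, had 328 and 273 in the controls and 61.6 and 74.3 in sgNrf2. Again no library overlapped, and the control libraries were close to each other. The log2 difference of Ddit3 was -2.13 ± 0.32 (adjusted p = 0.044). Both calls depended on both sgNrf2 libraries: without sgNrf2 A the adjusted p was 0.13 for Atf3 and 0.26 for Ddit3, and without sgNrf2 B 0.11 and 0.20, with 0 of the 10 genes called in each case. Without control B, Ddit3 was not called (adjusted p = 0.050) and Atf3 was (adjusted p = 0.044). Without control A, 6 of the 10 genes were called lower, Asns, Atf4, Atf5 and Trib3 among them, where 12.4% of all genes were, and DESeq2 called 7, where it called 10.4% of all genes lower.

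Trib3, the feedback inhibitor of ATF4, had scaled counts of 486 and 2506 in the controls and 170.1 and 97.0 in sgNrf2. The libraries did not overlap, but the control libraries differed widely from each other. Its log2 difference was -3.09 ± 0.82 (adjusted p = 0.091, 95% interval -5.22 to -0.97). Atf4 itself had 5288 and 8652 in the controls and 2879 and 3486 in sgNrf2, which did not overlap. Its log2 difference of -1.09 ± 0.30 missed the threshold (adjusted p = 0.093, 95% interval -1.86 to -0.33). Atf5, a factor of the same family with a known part in mitochondrial stress, had 5726 and 11979 in the controls and 2396 and 3672 in sgNrf2. The sgNrf2 libraries were again both lower, with a log2 difference of -1.48 ± 0.43 (adjusted p = 0.10). A large part of ATF4 control is on translation, which mRNA levels do not measure.

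Among the enzymes, Asns, which makes asparagine from aspartate, had 5981 and 7281 in the controls and 3911 and 4429.8 in sgNrf2. Shmt2 had 11586 and 9341 in the controls and 5165 and 6196 in sgNrf2. Both enzymes were lower in both sgNrf2 tumours, with log2 differences of -0.66 ± 0.20 (adjusted p = 0.11) for Asns and -0.88 ± 0.22 (adjusted p = 0.084) for Shmt2. Psat1, the transaminase of serine synthesis, had 26518 and 26639.8 in the controls and 20798 and 16973 in sgNrf2. The control values of Psat1 almost coincided and lay above both sgNrf2 values, with a log2 difference of -0.50 ± 0.24 (adjusted p = 0.23, 95% interval -1.12 to 0.12). Phgdh, the first enzyme of serine synthesis, had 2879 and 1173 in the controls and 1156 and 1681 in sgNrf2. Mthfd2 had 878 and 1792 in the controls and 1385 and 959 in sgNrf2. For both genes the sgNrf2 tumours fell within or at the edge of the control range: the log2 difference was -0.40 (95% interval -1.63 to 0.83) for Phgdh and -0.12 (95% interval -1.17 to 0.93) for Mthfd2. When libraries were scaled to equal totals, the median of all genes moved to 0.34 and the split of all calls from 266 higher and 351 lower to 874 and 362. Mthfd2 then changed sign to 0.18, which is -0.16 relative to that median, while Atf3 (-2.09, adjusted p = 0.047) and Ddit3 (-1.83, adjusted p = 0.049) stayed called lower.

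**Figure D1:**
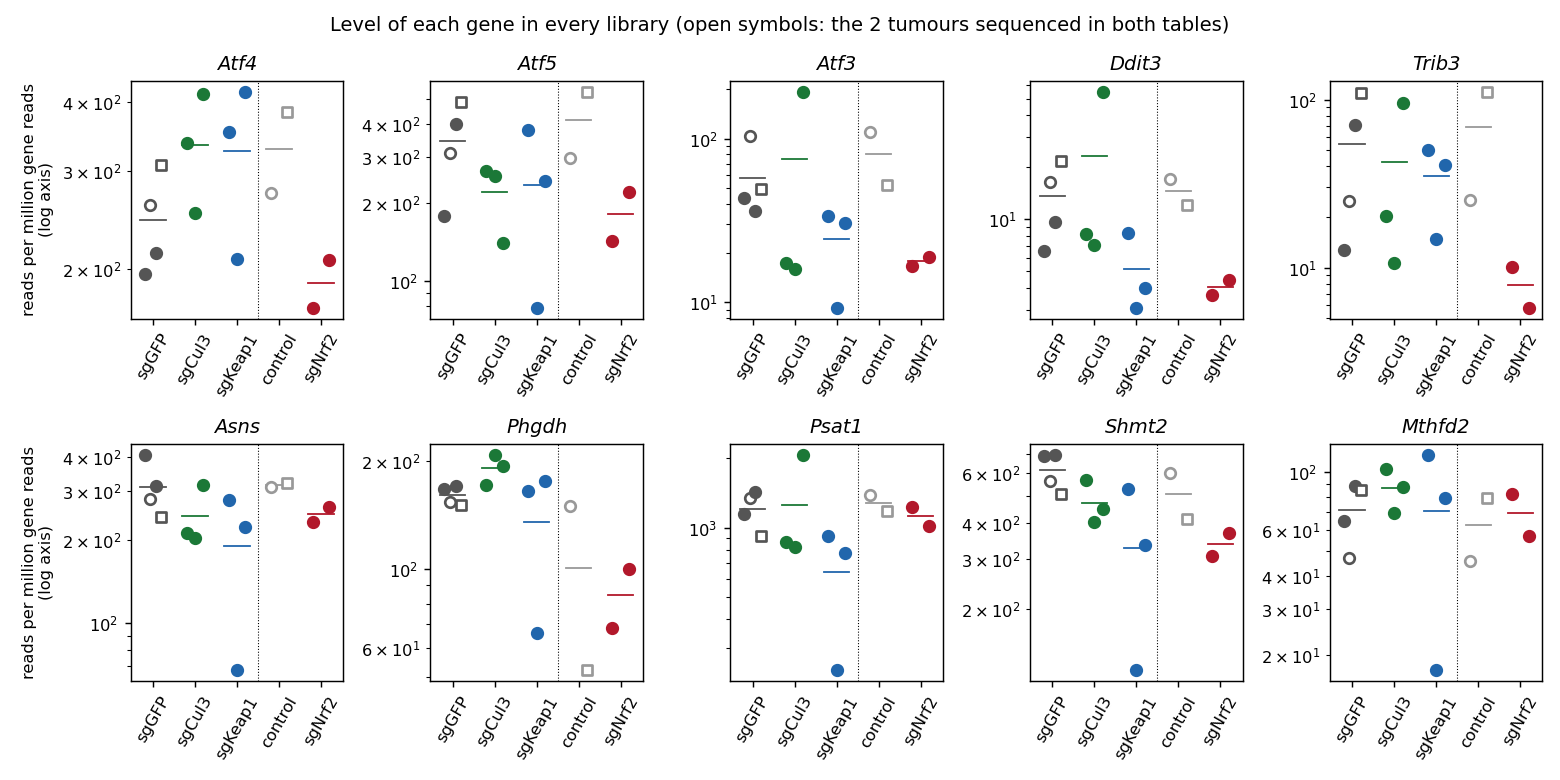
CPM (log axis) of each of the 10 genes in every library, with a line at each group mean. Open circles are sgGFP tumour 2 and its repeat, control A, open squares sgGFP tumour 4 and its repeat, control B, and the dotted line parts the separately made tables. sgNrf2 libraries lie lowest or nearly so for Atf3, Ddit3 and Trib3, and sgKeap1 tumour 2 is the lowest of its group for all 10 genes on this scale.

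Other values moved with the sgNrf2 comparison. The summed level of 12 neutrophil markers was 221 to 562 CPM in the controls and 14.6 to 40.7 in sgNrf2, where 1 of the 12, Mpo, was at 0 in sgNrf2 A. That of 11 erythroid markers was 1582 to 1628 against 577 to 909. Endothelial markers (10) went the other way in sum, at 78.4 to 87.3 in the controls and 193 to 208 in sgNrf2, with 2 of 10 below 0. So did cholangiocyte markers (10), at 32.8 to 83.9 and 97.1 to 364, and lymphocyte markers (11), at 3.65 to 8.57 and 16.2 to 19.0. Stellate cell and fibroblast markers (10) were also higher in sum, at 136 to 138 and 239 to 338, but 3 of 9 tested lay below 0. Macrophage markers (10) overlapped in sum, at 88.9 to 567 and 345 to 460. Called lower were 8 of 11 tested erythroid, 2 of 11 neutrophil and 2 of 9 macrophage markers, where 2.51% of all genes were. Called higher were 1 of 10 endothelial and 1 of 9 stellate cell and fibroblast markers, where 1.9% of all genes were. Hepatocyte markers (9) summed to 25555 to 32353 in the controls and 20708 to 25411 in sgNrf2, with 7 of 9 below 0 and 0 called. Alignments that were not unique came to 1.64 and 1.74 per gene read in the controls and 0.944 and 1.01 in sgNrf2, and the 10 most abundant genes took 15.6% and 18.9% against 7.94% and 9.09% of reads. Atf3 also belongs to the immediate early genes, which many stimuli induce fast. Of 13 others, a list added after the members' values were seen, 11 had a log2 difference below 0, 1 was called lower (Zfp36, an mRNA decay factor, -1.64 ± 0.19, adjusted p = 0.034), and the median was -0.92. The part of these values in the result was not tested.

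The choice of control tumours carried weight for these genes, since controls A and B are the same tumours as sgGFP 2 and 4. Over 8987 genes, log2 levels of control A and sgGFP 2 correlated at r = 0.992, and those of control B and sgGFP 4 at 0.967, as a description of libraries that share a tumour. All 10 genes agreed within 0.15 on the log2 scale between control A and sgGFP 2. Control B and sgGFP 4 differed for Phgdh, at 52.0 against 151 CPM, and for Ddit3, at 12.1 against 21.8. The log2 difference in Phgdh between libraries of this tumour (-1.54) was thus larger than that between any groups compared. For the others, control B ranged from a log2 difference of -0.29 (Shmt2) to one of 0.41 (Asns) against sgGFP 4.

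**Figure D2:**
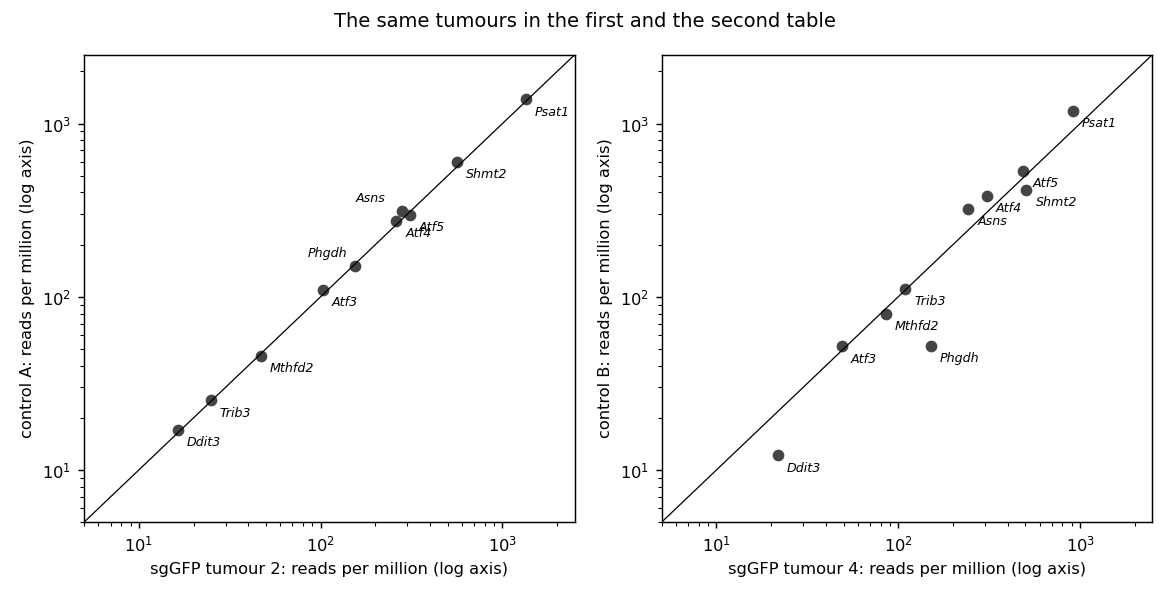
CPM (log axes) of the 10 genes in the first table against the second for the tumours sequenced in both, with the line of equal values. All genes lie along the line for control A, and Phgdh (52.0 against 151) and Ddit3 (12.1 against 21.8) lie below it for control B.

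As CPM, values could be set beside the sgGFP tumours not repeated in the second table, as a description with no test because the tables were made separately. Atf3 was 16.7 to 18.7 in sgNrf2, 35.9 to 43.1 in sgGFP tumours 1 and 3 and 49.0 to 103 in sgGFP tumours 2 and 4. Ddit3 was 3.65 to 4.42 in sgNrf2, 6.59 to 9.68 in sgGFP 1 and 3 and 16.4 to 21.8 in sgGFP 2 and 4. For both genes, sgGFP 2 and 4 were the 2 highest of the control tumours, and sgNrf2 lay below all 4. Atf4 gave another picture, with 170 to 208 in sgNrf2 and an overlapping 196 to 214 in sgGFP 1 and 3, against 261 to 307 in sgGFP 2 and 4. In all, sgNrf2 lay below every sgGFP tumour for 5 of the 10 genes (Atf3, Ddit3, Trib3, Phgdh and Shmt2), against 16.5% of the 12905 genes tested in both tables. Phgdh counts here only by the first-table library of sgGFP tumour 4. In control B, the repeat of that tumour, it was 52.0 CPM, below both sgNrf2 libraries (68.4 and 100).

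In sgKeap1 tumours none of the 10 genes was called by limma, and the log2 difference was above 0 for Atf4 and below 0 for the other 9 genes. Without sgKeap1 tumour 2, those of Phgdh, Mthfd2 and Trib3 were above 0 as well. With all libraries, 7.82% of 13045 tested genes were called in either direction, 4.45% higher and 3.37% lower. Differences were below 0 for 9 of the 10 genes, against 50.5% of all genes, with a median of -0.63 against -0.01 over all genes tested, and 3 of the 10 (Asns, Psat1 and Shmt2) had an unadjusted p under 0.05, against 29.2% of all genes. On recovered reads, edgeR and DESeq2 called none of them, where they called 2.68% and 7.37% of all genes lower. In all comparisons of the first table DESeq2 gave Atf3 no adjusted p. All 3 sgKeap1 tumours lay below all 4 controls for 3 genes (Atf3, Psat1 and Shmt2), against 12.6% of all genes, and above them for 0, against 13.1%. Markers of other cells moved in the same tumours. Neutrophil markers summed to 85.4 to 551 CPM in sgGFP and 14.4 to 26.5 in sgKeap1, with 8 of 11 called lower and up to 4 of the 11 at 0 in a library. Of 11 erythroid markers 6 were called lower (1345 to 2077 against 776 to 1685 CPM), and of 8 tested cholangiocyte markers 3 were called higher (39.3 to 122 against 90.0 to 231 CPM over 10). The part of these in the result was not tested. sgCul3 and sgKeap1 share the 4 sgGFP controls, so their values are given side by side without a measure of overlap.

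Shmt2 had scaled counts of 5436, 5165, 6633 and 5302 in sgGFP tumours 1 to 4. In sgKeap1, tumours 1 to 3 had 4883, 1601 and 3263. The groups did not overlap, with sgKeap1 tumour 1 just under the controls and tumour 2 far below them. Its log2 difference was -0.93 ± 0.32 (adjusted p = 0.093, 95% interval -1.64 to -0.22), and Shmt2 was called lower only when sgKeap1 tumour 1 was left out. Psat1 had 9059.6, 12345, 13541 and 9577 in sgGFP and 8458, 3164 and 7544 in sgKeap1, again without overlap. Its log2 difference was -0.90 ± 0.40 (adjusted p = 0.17). Asns had 3214, 2589, 2973 and 2541 in sgGFP and 2579, 888 and 2179 in sgKeap1, where tumour 1 reached the controls. The log2 difference of Asns was -0.72 ± 0.33 (adjusted p = 0.17).

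Atf4 was the only one of the 10 with a log2 difference above 0 in sgKeap1, with scaled counts of 1546, 2407, 2038 and 3217 in sgGFP and 3258, 2751 and 4059 in sgKeap1. On this scale the sgKeap1 values overlapped only with sgGFP tumour 4. As CPM, sgKeap1 tumour 2 (209) lay below sgGFP tumours 2, 3 and 4 (261, 214 and 307). The log2 difference of Atf4 was 0.58 ± 0.26 (adjusted p = 0.17, 95% interval -0.005 to 1.16). Atf3 had 339, 951, 342 and 513 in sgGFP and 311, 122 and 296 in sgKeap1, where all 3 tumours lay below the controls. Ddit3 had 52.0, 151, 92.1 and 228 in sgGFP and 76.8, 40.5 and 39.0 in sgKeap1, where tumour 1 overlapped. The log2 differences were -1.12 ± 0.75 for Atf3 (adjusted p = 0.34, 95% interval -2.77 to 0.54) and -1.16 ± 0.68 for Ddit3 (adjusted p = 0.27, 95% interval -2.65 to 0.32), wide enough to include 0 and falls as large as those in sgNrf2.

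Trib3 ranged from 99.9 to 1141 in sgGFP and from 197 to 462 in sgKeap1, inside the control range. Atf5 ranged from 1401 to 5095 and from 1042 to 3503, Mthfd2 from 432 to 893 and from 231 to 1075, and Phgdh from 1314 to 1624 and from 874 to 1711. The 95% intervals of the log2 differences all spanned 0: -1.99 to 1.70 for Trib3, -1.61 to 0.54 for Atf5, -1.15 to 0.86 for Mthfd2 and -0.69 to 0.35 for Phgdh. Tumour 2 of sgKeap1 had the lowest scaled count of its group for 9 of the 10 genes, and the lowest CPM for all 10. Without it the log2 difference moved from -0.93 to -0.49 for Shmt2, from -0.90 to -0.46 for Psat1 and from -0.72 to -0.25 for Asns, and it turned positive for Phgdh (0.13), Mthfd2 (0.51) and Trib3 (0.23). Its hepatocyte markers summed to 90297 CPM, against 16338 to 17561 in the other sgKeap1 tumours, and the part of this in the result was not tested.

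**Figure D3:**
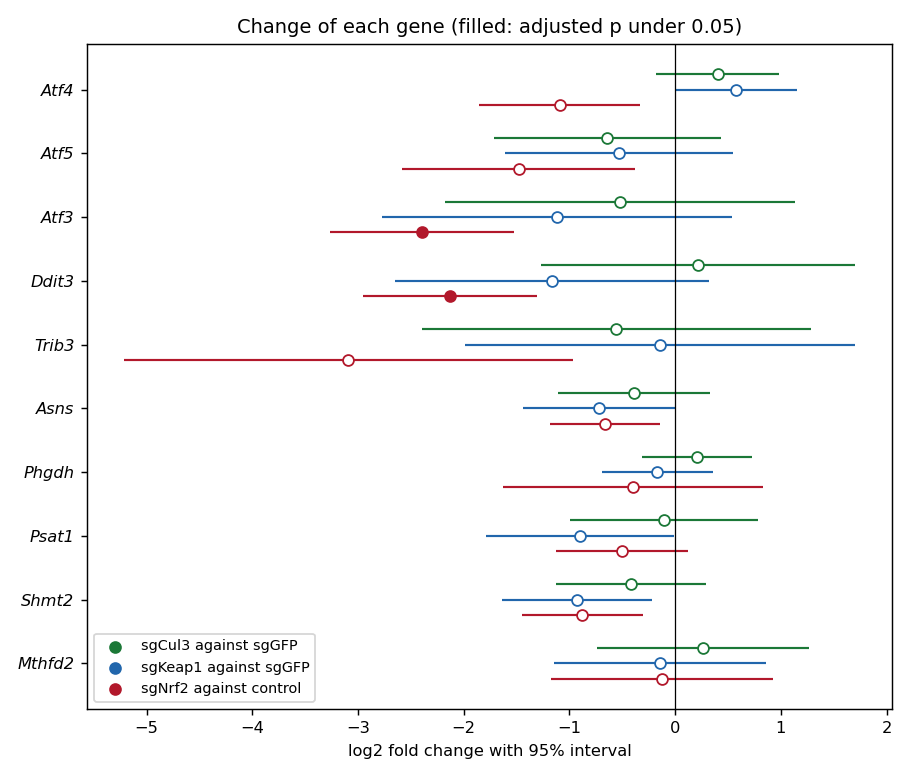
Log2 differences of the 10 genes with 95% intervals in sgCul3 and sgKeap1 against sgGFP and in sgNrf2 against its controls, with filled points where the adjusted p was under 0.05. The 2 filled points are Atf3 (-2.39) and Ddit3 (-2.13) in sgNrf2, and Atf4 lies above 0 in sgCul3 (0.40) and sgKeap1 (0.58) and below it in sgNrf2 (-1.09).

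In sgCul3 tumours the 10 genes showed no called change, whereas 2.2% of 13045 tested genes were called, 1.35% higher and 0.851% lower. Differences were above 0 for 4 genes and below 0 for 6, where 48.9% of all genes lay below 0, with a median of -0.25 against 0.01 over all genes, and 0 of the 10 had an unadjusted p under 0.05, against 17.2% of all genes. edgeR and DESeq2 called none of them, where they called 0.59% and 3.43% of all genes lower. All 3 tumours lay below all controls for 1 gene, Shmt2, against 7.54% of all genes, at 4973, 3884 and 3830 (log2 difference -0.42 ± 0.32, adjusted p = 0.56). For 0 of the 10 did they lie above all controls, against 8.71%. Beside these values, 4 of 11 erythroid markers were called lower and 2 of 8 cholangiocyte markers higher, and neutrophil markers (19.6 to 301 CPM) overlapped with sgGFP. Endothelial markers summed to 57.5 to 87.2 CPM in sgCul3 and 91.3 to 164 in sgGFP, with 9 of 10 below 0 and 1 called lower. The part of these markers in the result was not tested.

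Tumour 3 of sgCul3 stood apart in the stress genes. Atf3 had scaled counts of 152, 153 and 1656 in sgCul3 tumours 1 to 3, Ddit3 71.8, 68.2 and 468, and Trib3 178, 103 and 822. Tumours 1 and 2 were below the mean of the controls, whereas tumour 3 exceeded every sgGFP tumour for Atf3 and Ddit3. Atf5 went the other way, at 1202 in tumour 3 against 2317 and 2444 in tumours 1 and 2, and below every sgGFP tumour (1401 to 5095). The same tumour had the highest Psat1 of all libraries of its table, at 17751 against 7569 and 7945 in the other sgCul3 tumours. Its immediate early genes summed to 903 CPM, against 275 and 337 in the other sgCul3 tumours, and the part of this was not tested. With this spread the 95% intervals of the log2 differences ran from -2.18 to 1.14 for Atf3, from -1.27 to 1.71 for Ddit3, from -2.40 to 1.29 for Trib3 and from -0.99 to 0.79 for Psat1.

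Atf4 had scaled counts of 2951, 2433 and 3540 in sgCul3, each above the sgGFP mean of 2302 ± 704 (SD, n = 4). These values overlapped only with sgGFP tumour 4 (3217). As CPM, sgCul3 tumour 2 (252) also lay below sgGFP tumour 2 (261). The log2 difference of Atf4 was 0.40 ± 0.26 (adjusted p = 0.47, 95% interval -0.18 to 0.98). Phgdh had 1499, 2013 and 1656 in sgCul3 (log2 difference 0.21 ± 0.24, adjusted p = 0.71), with 2 tumours above all controls. Atf5 ranged from 1202 to 2444, Asns from 1850.0 to 2713 and Mthfd2 from 674 to 893, all overlapping with sgGFP. Their log2 differences were -0.64 ± 0.49, -0.39 ± 0.33 and 0.26 ± 0.46, with adjusted p of 0.55, 0.58 and 0.81.

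Between sgKeap1 and sgCul3 tumours none of the 10 genes was called by limma, edgeR or DESeq2. Here limma called 0.0613% of 13045 genes, 0.0307% higher and 0.0307% lower, and edgeR and DESeq2 called 0.023% and 0.307% lower. Differences were below 0 for 7 of the 10 genes, against 50.2% of all genes, and 0 of the 10 had an unadjusted p under 0.05, against 10.1% of all genes. The groups overlapped for every one of the 10, whereas sgKeap1 lay wholly below sgCul3 for 8.24% of all genes and wholly above for 7.52%. The log2 difference of sgKeap1 minus sgCul3 was lowest for Ddit3 (-1.38 ± 0.72, adjusted p = 0.53, 95% interval -2.97 to 0.21) and highest for Trib3 (0.41 ± 0.90, adjusted p = 0.88, 95% interval -1.56 to 2.38). For Atf4 it was 0.17 ± 0.28 (95% interval -0.45 to 0.79).

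The sgGFP tumours used as controls moved these estimates, in an alternative chosen after the data were seen. Against sgGFP tumours 2 and 4 alone, which are the tumours that served as controls for sgNrf2, the sgKeap1 difference was -1.63 for Atf3 and -1.86 for Ddit3. Against tumours 1 and 3 alone it was -0.60 and -0.47. Atf4 moved the opposite way, from 0.25 with tumours 2 and 4 to 0.90 with tumours 1 and 3 in sgKeap1, and from 0.08 to 0.73 in sgCul3. None of the 10 genes was called with either pair. For the serine enzymes the pairs lay closer: in sgKeap1 Psat1 was -0.89 with tumours 2 and 4 and -0.92 with 1 and 3, Phgdh -0.19 and -0.15, and Shmt2 -0.83 and -1.03.

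**Figure D4:**
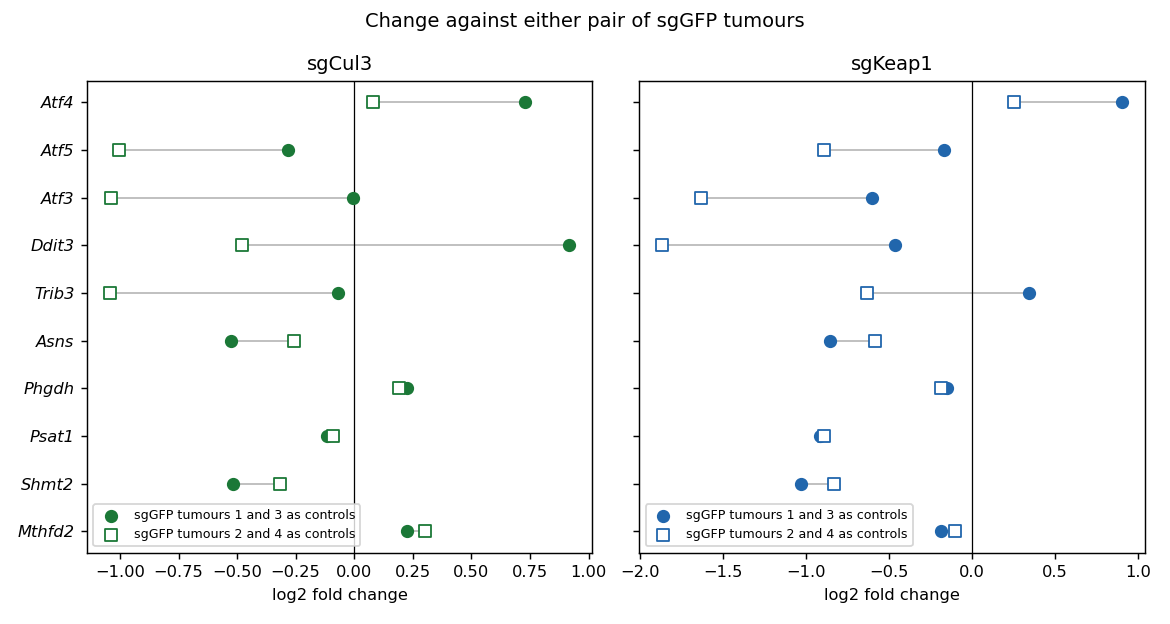
Log2 differences of the 10 genes in sgCul3 (left) and sgKeap1 (right) against sgGFP tumours 1 and 3 alone (filled circles) or 2 and 4 alone (open squares). The stress genes shift with the pair, as for Ddit3 in sgKeap1 (-0.47 and -1.86), while Psat1 (-0.92 and -0.89) hardly does.

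Genes of the eIF2 kinases and the eIF2 cycle mostly did not pass. Of all genes tested, 1.35% were called higher and 0.851% lower in sgCul3, 4.45% and 3.37% in sgKeap1, and 1.9% and 2.51% in sgNrf2. These shares stand beside the counts of every list below. Of 16 genes of the eIF2 kinases and the eIF2 cycle, 1 fell in sgNrf2: Ppp1r15a, which encodes the stress-induced phosphatase subunit GADD34, at 163 ± 40.9 (SD, n = 2) against 789 ± 182 (log2 difference -2.27 ± 0.32, adjusted p = 0.042). The call was lost without either sgNrf2 library. In sgKeap1 1 of the 16 rose, Eif2s3x, a subunit of eIF2, at 820 ± 256 (n = 3) against 306 ± 71 (1.40 ± 0.33, adjusted p = 0.029), and in sgCul3 0 did. The kinase gene Eif2ak4 (GCN2, the sensor of missing amino acids) had differences of -0.76 ± 0.21 (adjusted p = 0.051) in sgKeap1 and -0.85 ± 0.21 (adjusted p = 0.066) in sgCul3. Eif2s3x lost its call without sgGFP tumour 3, sgKeap1 tumour 2 or sgKeap1 tumour 3, and with either pair of sgGFP tumours alone.

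Of 16 other tested ATF4 target genes, 0 were called in sgNrf2 or sgCul3 and 1 in sgKeap1. In sgNrf2 11 of the 16 lay below 0, with a median of -0.79 against 0.04 over all genes. The lowest adjusted p there belonged to Cth, the cysteine-forming enzyme of transsulfuration (-1.97 ± 0.45, adjusted p = 0.073), Chac1, which degrades glutathione (-1.83 ± 0.45, adjusted p = 0.082), and the transcription factor gene Cebpb (-2.28 ± 0.62, adjusted p = 0.094). In sgKeap1 Gpt2, the mitochondrial alanine transaminase, rose to 5800 ± 829 (n = 3) from 2902 ± 383 (n = 4), with a log2 difference of 0.998 ± 0.21 (adjusted p = 0.020). The call was lost under equal totals, with either pair of sgGFP tumours alone, and without sgGFP tumour 1, sgKeap1 tumour 2 or sgKeap1 tumour 3. The medians of the list were 0.34 in sgKeap1 and 0.09 in sgCul3.

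Of 20 other serine, glycine and folate genes, 1 rose in sgKeap1 and 0 were called in sgCul3 and sgNrf2. The gene called was Mthfd2l, a paralogue of Mthfd2, at 181 ± 56 (n = 3) against 69 ± 21 (n = 4), a log2 difference of 1.39 ± 0.33 (adjusted p = 0.030). It was not called without sgGFP tumour 3, sgKeap1 tumour 2 or sgKeap1 tumour 3, with either pair of sgGFP tumours, or with the compared groups alone. In sgNrf2 14 of the 20 lay below 0 and 6 above, with a median of -0.10 against 0.04 over all genes. Among them, Psph, which completes serine synthesis, had -1.09 ± 0.32 (adjusted p = 0.11) in sgNrf2, and Sds, which degrades serine, -4.23 ± 0.86 (adjusted p = 0.061). Cytosolic aminoacyl-tRNA synthetases, many of them ATF4 targets, gave 0 calls among 20 genes in each guide group.

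**Figure D5:**
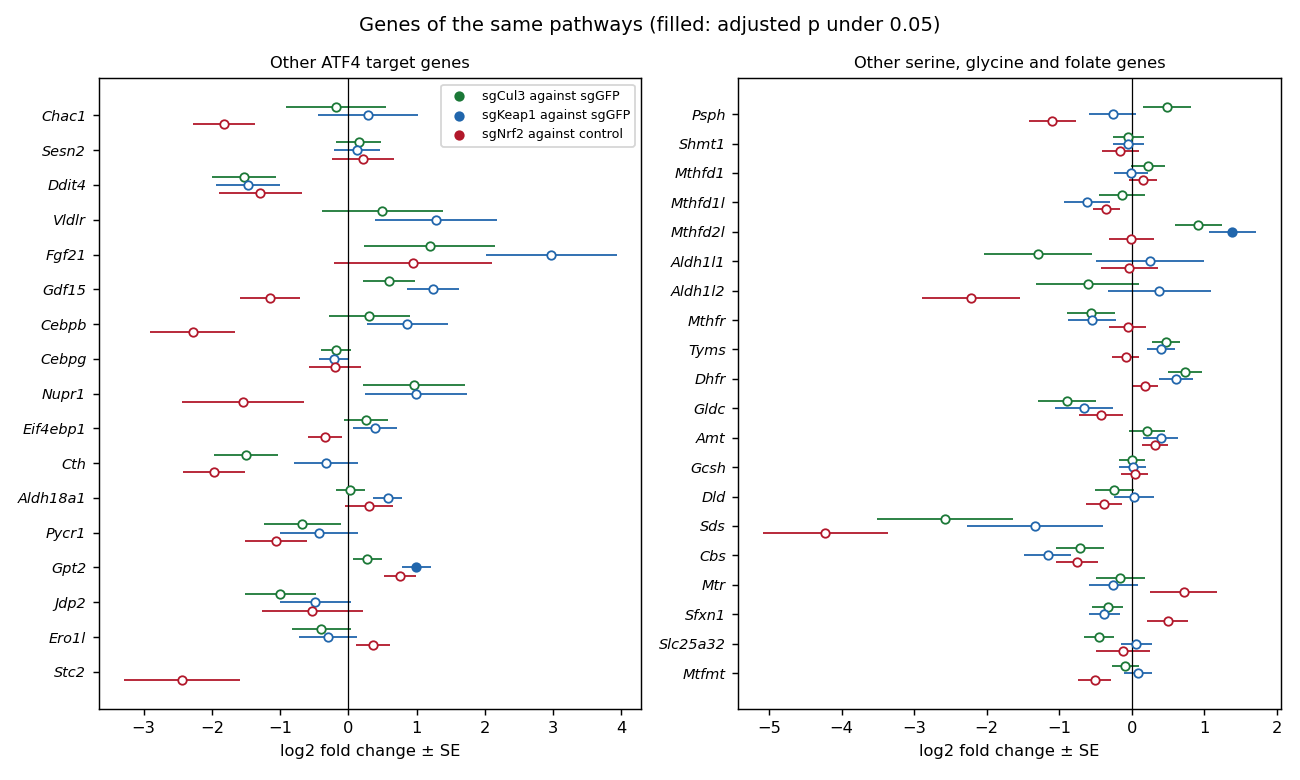
Log2 differences ± SE of the other ATF4 target genes (left) and the other serine, glycine and folate genes (right), with filled points where the adjusted p was under 0.05. The filled points are Gpt2 (0.998) and Mthfd2l (1.39), both in sgKeap1.

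Of 13 amino acid transporters known to respond to ATF4 or NRF2, 3 rose in sgKeap1. Slc7a11, the cystine importer that both factors can induce, rose in all 3 guide groups, with log2 differences of 7.38 ± 0.42 in sgCul3, 8.53 ± 0.42 in sgKeap1 and 8.81 ± 0.43 in sgNrf2 (adjusted p = 1.06e-05, 2.17e-06 and 0.017). In sgKeap1 its partner Slc3a2 (1.89 ± 0.35, adjusted p = 0.010) and the neutral amino acid carrier Slc1a4 (3.72 ± 0.62, adjusted p = 0.0063) rose as well, while 10 of the 13 transporters did not pass. The call of Slc3a2 was lost without sgKeap1 tumour 3 and with either pair of sgGFP tumours alone, and that of Slc1a4 with sgGFP tumours 1 and 3 alone. In sgCul3, 1 transporter was called, and 2 were with the tumour number as a block, a fit that leaves out sgGFP tumour 4. Slc1a4 had 2276 ± 2011 in sgNrf2 against 225 ± 7 (2.98 ± 0.70, adjusted p = 0.075).

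Among lists for other arms of the stress response, only that of mitochondrial chaperones and proteases held calls. Of 21 genes of the ATF6 and XBP1 branch of the unfolded protein response, 0 were called in sgCul3, sgKeap1 or sgNrf2. Of all genes, 2.2%, 7.82% and 4.41% were called in these groups. Of 11 mitochondrial chaperones and proteases, Hspa9 (-1.25 ± 0.34, adjusted p = 0.049) and Afg3l2 (-1.41 ± 0.36, adjusted p = 0.041) fell in sgKeap1, where 3.37% of all genes were called lower. Clpp (-1.21 ± 0.17, adjusted p = 0.043) fell in sgNrf2, where 2.51% were. Leaving out any single sgGFP tumour ended the call of Hspa9, as did leaving out sgGFP tumour 1, 3 or 4 for Afg3l2 and either sgNrf2 library for Clpp. Both sgKeap1 calls were also lost without sgKeap1 tumour 2 or 3, with either pair of sgGFP tumours, with the compared groups alone and by edgeR.

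Some of these genes share exon bases with neighbours in GENCODE M21 (GRCm38), and the sources used here do not give the strand used for counting. Ddit3 (chromosome 10, 127290774 to 127296288, plus strand) shares 68 of its 1713 exon bases with Mars on the other strand, 13 with Gm4189, and 105 with a second annotated gene of the same symbol. Atf5 (chromosome 7, 44812256 to 44816658, minus strand) shares 82 exon bases with Il4i1 and Nup62, and Shmt2 (chromosome 10, 127517123 to 127522444, minus strand) 32 with Ndufa4l2. For Atf3 (chromosome 1, 191170296 to 191218039, minus strand) and the other 6 genes no exon bases are shared.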

How the data were processed

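RNA of liver tumours was extracted with a Qiagen kit and made into libraries with an Illumina TruSeq RNA kit, per the labels' protocols. The authors deposited gene-level signal values, which are HTSeq counts scaled by DESeq per the labels and the submitters' processing notes, which also name Picard and mm10. Versions, the aligner and the counting strand were not given in any source used here. All values were whole reads times 1 factor per library, within 0.1 reads, after removing the 1 added to each entry of the first table, and CPM and RPKM were computed from these reads. Genes with a mean of at least 10 (13045 and 13989) entered a two-sided limma test (limma 3.58.1, R 4.3.3, mean-variance trend) on log2 of the deposited value plus 1. A call is an adjusted p (Benjamini-Hochberg, over all genes of the table) under 0.05. Scripts were tested on simulated data. sgGFP, sgCul3 and sgKeap1 shared 1 fit. Adjusted p-values are limma's unless another tool is named.

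Alternatives were edgeR 4.0.16 and DESeq2 1.42.0 on recovered reads, other pseudocounts, filters and scalings, a block for tumour number, the compared groups alone, and each library left out. The labels do not say what tumour numbers stand for. Same-numbered sgGFP and sgCul3 tumours deviated together (r = 0.164, 0.175 and 0.314, each over 0.1), so the data, not the labels, were the ground for the block alternative. These values do not establish pairs. Between sgKeap1 and sgCul3, differently numbered tumours reached 0.264 (sgKeap1 3 and sgCul3 1). The main fit used no pairs. The 10 genes, the pathway and marker lists and the naming rule (each of the 10, up to 4 genes per list by adjusted p, and the 6 genes most alike) were chosen with earlier results of these data known. The immediate early genes were added after values were seen. Some genes named by the rule are left out of the text.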

Additional observations from a re-analysis of the deposited data

Results flagged for a closer look

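For Atf4 and Phgdh, the libraries of different guides lay on opposite sides of their control means, although limma called neither gene in any comparison with all libraries in it. As scaled counts, all 3 sgCul3 and all 3 sgKeap1 tumours had more Atf4 than the mean of the sgGFP tumours (log2 differences of 0.40 and 0.58). Both sgNrf2 tumours had less than the mean of their controls (-1.09). This depended on the scale: as RPKM, sgKeap1 tumour 2 (88.5) lay below the sgGFP mean (104). Under equal totals the sgKeap1 difference of Atf4 was 0.38. For Phgdh, all 3 sgCul3 tumours lay above the sgGFP mean (0.21) and both sgNrf2 tumours below the control mean (-0.40), whereas sgKeap1 tumours lay on both sides of it (-0.17, 2 of 3 above). The difference between guides was not tested, since the tables were made separately. The Atf4 values depend on the control tumours: sgGFP tumours 2 and 4, the tumours behind controls A and B, had the 2 highest Atf4 levels of the 4 (261 and 307 CPM against 196 and 214), and against them alone the sgCul3 difference was 0.08 and that of sgKeap1 0.25. For Phgdh, control B held 52.0 CPM where sgGFP 4, the same tumour, held 151, and without control A the sgNrf2 difference was 0.25.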

How the results depend on the processing

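Of the 10 genes, none was called in sgCul3 under any alternative run, and in sgKeap1 only Shmt2 was, without sgKeap1 tumour 1. In sgNrf2, of the values under alternatives 100 kept direction and side of the threshold, 10 newly passed, 6 no longer did and 4 changed sign. There were 7 genes called lower by DESeq2 and 0 to 6 with 1 library left out. Ddit3, the lowest of the 10 genes, was detected in every library, and how far depth limits the calls was not measured. A lone library left in a group is assumed to vary like the other group. The cause of these shifts was not tested.

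Counts over all genes, higher then lower, moved as follows. For sgCul3 they were 115 and 47 with a mean of at least 50, 479 and 447 by DESeq2, 92 and 64 with the 2 groups alone, 44 to 212 and 21 to 116 with 1 library left out, and, in alternatives chosen after the data were seen, 37 and 15 with sgGFP tumours 2 and 4 and 35 and 11 with 1 and 3. For sgKeap1 they were 366 higher under equal totals, 1181 and 962 by DESeq2, 201 to 814 and 113 to 688 with 1 library left out (0 to 1 of the 10 genes called lower), and, with the added pairs, 140 and 46 or 224 and 101. For sgKeap1 against sgCul3 they were 2 higher with a mean of at least 50, 64 and 40 by DESeq2, 0 and 0 with the 2 groups alone, and 0 to 6 and 0 to 3 with 1 library left out. For sgNrf2 they were 407 and 565 under quantile normalization, 874 higher under equal totals, 1181 and 1458 by DESeq2, and 25 to 1850 and 33 to 1718 with 1 library left out. Equal totals moved the median of all genes to -0.20 in sgKeap1 and -0.23 in sgKeap1 against sgCul3.

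Signs changed mainly for genes that overlapped between groups. In sgCul3, Atf3 was 0.28 by edgeR and 0.27 by DESeq2, Ddit3 -0.48 against sgGFP 2 and 4, and with 1 library left out Atf3 ranged from -1.66 to 0.05, Ddit3 from -0.68 to 0.69, Trib3 from -1.42 to 0.069 and Psat1 from -0.50 to 0.11. In sgKeap1, Trib3 was 0.34 against sgGFP 1 and 3, Mthfd2 0.058 by edgeR and 0.057 by DESeq2, and the ranges were -0.76 to 0.40 for Trib3, -0.36 to 0.13 for Phgdh and -0.59 to 0.51 for Mthfd2. In sgKeap1 against sgCul3, equal totals gave -0.066 for Atf4 and -0.13 for Atf5, edgeR and DESeq2 gave -0.052 and -0.047 for Trib3, and the ranges were -1.17 to 0.55 for Atf3, -0.28 to 0.60 for Atf5, -0.21 to 1.27 for Trib3, -0.62 to 0.15 for Asns and -0.86 to 0.25 for Mthfd2. In sgNrf2, Mthfd2 was 0.18 under equal totals, and the ranges were -1.05 to 0.25 for Phgdh and -0.64 to 0.39 for Mthfd2.

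With the tumour number as a block, which leaves out sgGFP tumour 4, sgCul3 gave 146 and 86 calls and 0 of the 10 genes, and apart from 1 more transporter it changed no call count of the pathway lists. In the other comparisons, too, the labels give tumours only a number or letter. In sgKeap1 the correlations of same-numbered tumours were 0.199, 0.0425 and -0.0941 and the block gave 975 and 803 calls, 0.40 for Trib3 and 0.015 for Mthfd2. In sgKeap1 against sgCul3 they were 0.239, 0.518 and 0.098, and not every tumour correlated best with its own number in these 2 comparisons, while in sgCul3 against sgGFP each sgCul3 tumour did. For sgNrf2 the correlation was near 0 (-0.0006), and the block called Atf3 (adjusted p = 0.034) and Atf5 (0.044) and not Ddit3 (0.051).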

Other observations

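Across the 10 libraries of the first table, the genes whose level ran most like the mean of the 10 genes were, among 8703 genes, Med15 (Pearson r = 0.964), Pfkp (0.950), Hsd17b13 (0.937), Cox7a2l (0.934), Letmd1 (0.929) and Inpp5f (0.920). After group means were subtracted they were Tysnd1 (0.975), Apmap (0.974), Phc3 (0.970), Pfkp (0.965), Ripk2 (0.963) and St5 (0.961), and Pfkp was in both sets. These values, with no p, describe 10 libraries that differ together in group and depth. Against the mean of the other 9 genes, Psat1 ran closest (r = 0.842) and Atf4 least close (0.206), whereas within groups Atf4 reached 0.738.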
